A study of Rattus norvegicus with 17 samples.

Results

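Testes of rat fetuses from dams given 300 mg/kg/d of dipentyl phthalate (DPeP), the top dose of the study, were compared with testes of fetuses from dams given corn oil alone. The comparison took every library labelled with that dose (n = 5) and every library labelled as vehicle (n = 3), which is 8 of the 17 libraries of the series. All genes that passed a filter on low counts were tested, 18005 of 30560. The fall of the steroid genes of Leydig cells is the known response to this compound and serves here as a point of reference. What else differed at the top dose is described here.

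Both groups were wild type Sprague Dawley rats whose dams were dosed by gavage in 2.5 mL/kg of corn oil between gestational days 17 and 21, with the fetal testes taken on day 21. The groups shared the oil, the gavage and the day of collection and differed in DPeP. RNA for a library came from 1 testis, or 2 testes of a litter pooled. The labels do not say which libraries share a dam, so the p-values measure the spread between these libraries. The study also dosed dams at 1, 11 and 100 mg/kg/d (n = 3 libraries each), and those libraries entered the fit that estimated the spread.

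DPeP is a diester of phthalic acid, a class used as plasticizers, and several members of the class lower testosterone production in the fetal rat testis. The fetal testis holds cords, in which Sertoli cells surround the germ cells, and an interstitium with Leydig cells, fibroblasts, vessels and macrophages. Peritubular myoid cells and a basement membrane lie between both compartments. Sertoli cells send signals outward, such as desert hedgehog, FGF9 and anti-Müllerian hormone, and Leydig cells send androgens and insulin-like peptide 3. In bulk RNA of whole testes, fewer cells of a type and less RNA per cell cannot be told apart.

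The 8 libraries held 15948971 to 17920695 gene counts, with 21596 to 22529 genes detected in each. Levels are CPM, gene counts relative to the scaled library size, and they compare libraries for 1 gene, not 1 gene with another. Mitochondrial genes took 5.58% to 6.16% of counts in the vehicle libraries and 5.14% to 5.78% at 300 mg/kg/d. The share was higher in replicates 05 and 18 of the 100 mg/kg/d group, at 9.05% and 7.76%. Markers of the labelled tissue were present in each of the 8 libraries: the 12 tested Sertoli cell markers summed to 2740 to 5580 CPM and the 16 tested germ cell markers to 697 to 938 CPM. The sample titles carry 1 of 3 codes whose meaning is not given. Vehicle replicates 01, 08 and 15 each had a different code, and no library of the top dose carried the code of replicate 08.

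In all, 432 genes were called at an adjusted p under 0.05 (edgeR's quasi-likelihood test), which is 2.4% of the genes tested; 179 rose (0.994%) and 253 fell (1.41%). Of those that fell, 104 did so by at least 2-fold and 31 by at least 4-fold. Rises of at least 2-fold numbered 62, and 4 of them were at least 4-fold. The genes that fell made up 2.77% of the vehicle CPM and 1.44% at 300 mg/kg/d, and the genes that rose 0.748% and 1.25%. The reference list of 13 Leydig steroid genes had 11 that fell and a median log2 fold change of -1.71, against a median of 0.01 over all tested genes. Only 66 of the 253 genes that fell and 36 of the 179 that rose stand in any of the 45 lists used, that of the steroid genes included. In a list of glycolysis and hypoxia genes 6 of 30 fell and none rose. The lists above were chosen with earlier results of these data known, and the following ones were written after values had been seen. The directions of neither kind are independent evidence. Lists of the second kind gave 5 of 44 lower for 1-carbon metabolism and 4 of 15 for tryptophan metabolism. They gave 11 of 49 lower for lysosomal enzymes and 5 of 15 for antigen processing. Higher were 5 of 23 for cartilage-type matrix and 6 of 37 for basement membrane.

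**Figure D1:**
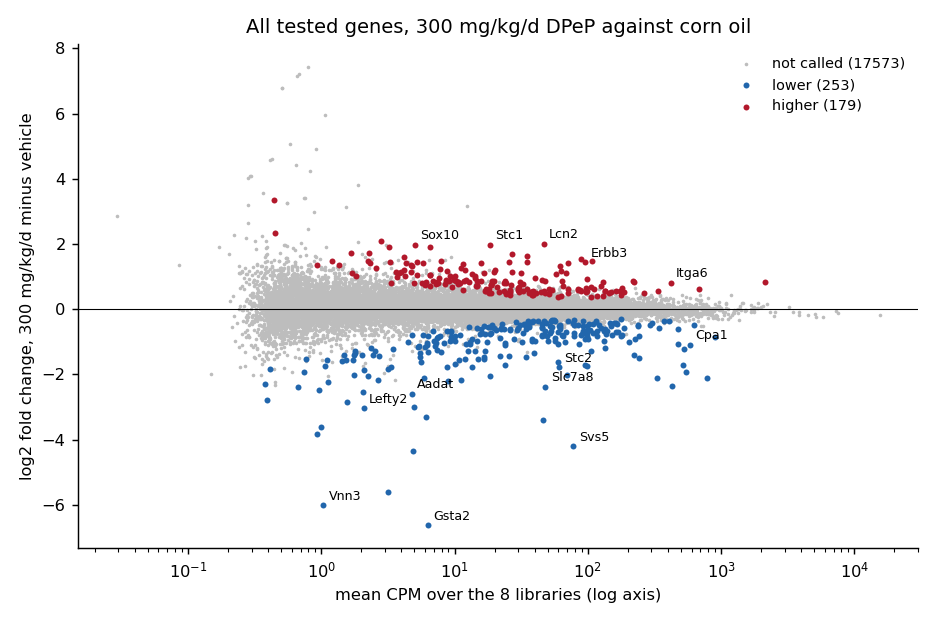
Log2 fold change at 300 mg/kg/d against vehicle (y axis) of the 18005 tested genes against their mean CPM over the 8 libraries (x axis, log scale). Blue points are the 253 genes that fell, red points the 179 that rose and grey points genes that were not called; the largest falls, those of Gsta2 and Vnn3, reached -6.62 and -6.01, and the highest of the named rises, that of Lcn2, reached 2.01.

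All 5 treated libraries lay outside the vehicle range for 175 of the genes that rose and 249 of those that fell. Among all tested genes, called or not, 12.3% had groups that did not overlap, 5.82% on the higher and 6.48% on the lower side. Within the code of vehicle replicate 15, which held 2 libraries of the top dose, 179 of 179 and 253 of 253 called genes had the same sign. Within the code of vehicle replicate 01, which held 3, the counts were 179 of 179 and 252 of 253. The genes were called from these same libraries, and most had groups that did not overlap. The signs within a code were therefore largely set by the calling and are no separate evidence. The number of calls depended on the controls: it was 256, 264 and 212 without vehicle replicates 01, 08 and 15. A fit that included the sample code gave 270, of which 254 were among the 432, and a fit of the 2 codes that both groups share, with the code as a term, gave 552, of which 338 were.

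Among signals of the TGF-beta family, the antagonist Lefty2 and the hormone subunit Inha fell, and the ligands Bmp7 and Bmp3 rose. Lefty2 encodes a secreted inhibitor of Nodal signals. Its level was 4.88, 4.86 and 4.15 CPM in vehicle replicates 01, 08 and 15. At 300 mg/kg/d it was 0.908, 0.563, 0.468, 0.404 and 0.451 CPM in replicates 06, 07, 13, 14 and 20. The groups did not overlap, and each treated library was below 1 CPM. The log2 fold change was -3.04 (SE 0.333, adjusted p = 1.11e-05). Inha, the alpha subunit of inhibin made by Sertoli and Leydig cells, had 913, 654 and 906 CPM in vehicle and 343, 346, 446.5, 366 and 264 CPM at the top dose. It was 2.33-fold lower, a log2 difference of -1.22 (SE 0.152, adjusted p = 4.99e-05). It was the 1 of 12 tested Sertoli cell markers that fell, beside 6 that rose, so 58.3% were called, against the 2.4% of all genes. In the fit with the sample code 4 of the 12 were called.

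Bmp3, a member of the BMP family that antagonises other BMPs, rose 2.79-fold. It had 4.31, 4.24 and 2.60 CPM in vehicle and 12.4, 6.70, 6.90, 14.3 and 11.5 CPM at the top dose. Replicates 07 and 13 were lower than the other 3 treated libraries, and all 5 were above vehicle (log2 fold change 1.48, SE 0.317, adjusted p = 0.0131). Bmp7, a BMP ligand, was 1.74-fold higher, with 12.6 to 13.9 CPM in vehicle and 18.2 to 28.7 CPM at the top dose (adjusted p = 0.0291). Neither rise was called in the fit with the sample code, where the adjusted p was 0.0575 for Bmp3 and 0.116 for Bmp7. Bmp3 belongs to none of the lists. Of the 34 tested genes of the Nodal and TGF-beta list, 1 rose and 2 fell, 8.82% against the 2.4% of all genes, and the list's median log2 fold change was 0.05.

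Signals that Sertoli cells send rose in part. Dhh, desert hedgehog, which acts on Leydig precursors and myoid cells, had 76.7, 63.1 and 85.3 CPM in vehicle and 97.4, 106, 134, 110 and 99.7 CPM at the top dose. The groups did not overlap, and the rise was 1.46-fold (log2 fold change 0.54, SE 0.128, adjusted p = 0.0243). The target genes of the pathway gave smaller values that were not called: Ptch1, the receptor, had a log2 difference of 0.29 (adjusted p = 0.405) and Gli1, a transcription factor and readout, of 0.03 (adjusted p = 0.963). All 11 tested hedgehog genes had values above 0, against 9357 of all 18005 tested genes, and the hedgehog median was 0.15. The Dhh call was lost in 5 of 18 alternatives, the fit with the sample code among them, at an adjusted p of up to 0.165.

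In the FGF list 3 of 22 tested genes rose and none fell, 13.6% against the 2.4% of all genes. The list's median log2 fold change was 0.26. Fgf9, a ligand of the fetal Sertoli cell, had 4.69, 5.25 and 4.52 CPM in vehicle and 7.202, 11.8, 10.2, 8.13 and 9.91 CPM at the top dose. It was 1.96-fold higher and no libraries overlapped (log2 fold change 0.97, SE 0.199, adjusted p = 0.00924). Etv4, a transcription factor induced by FGF signals, rose 1.46-fold (adjusted p = 0.0196), from 22.9 to 26.9 CPM in vehicle to 32.7 to 43.9 CPM. Dusp4, a phosphatase that limits the MAP kinases, rose 1.599-fold (adjusted p = 0.0326). Replicate 13 had the highest Dusp4 level of the group, 174 CPM against 105 to 117 CPM in the other 4. Etv4 and Dusp4 lost their calls in 6 and 7 of 18 alternatives, the fit with the sample code among them.

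Retinoic acid genes moved in both directions. Cyp26b1, the enzyme that clears retinoic acid in the fetal testis, rose 1.58-fold, from 164, 105 and 127 CPM to 189, 197, 275, 195 and 188 CPM (adjusted p = 0.0247). Crabp2, a carrier of retinoic acid into the nucleus, fell, with a log2 value of -0.98 (SE 0.190, adjusted p = 0.00565). It had 203, 178 and 195 CPM in vehicle and 126, 83.2, 113, 89.9 and 74.5 CPM at the top dose, and the groups did not overlap. Cyp26b1 lost the call in the fit with the sample code. The list of 19 genes had no other call, so 10.5% of it was called, against 2.4% of all genes. Igfbp2, a binding protein of insulin-like growth factors, fell 1.497-fold (adjusted p = 0.00145). It was the 1 called of 14 tested genes of that system, 7.14% against the 2.4% of all genes. Igf2, the main fetal growth factor of the system, had 347 CPM in both group means (SD 68.9, n = 3 and SD 65.0, n = 5).

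Wnt and Notch genes, heat shock proteins and chemokines had no called member in the main edgeR fit, and none by DESeq2 or limma-voom. Over the alternatives up to 2 Wnt genes and 1 Notch gene were called. At an unadjusted p under 0.05, where 2391 of all 18005 tested genes stood, 9 of 29 Wnt genes had higher and none lower values. The Wnt median log2 fold change was 0.17. The counts at that level were 2 higher and 2 lower of 19 Notch genes, 1 lower of 13 heat shock genes and 2 lower of 21 chemokines and cytokines. Nr4a1 is a nuclear receptor induced rapidly by many hormone signals. It was the 1 of 27 cAMP response genes that was called, 3.70% against the 2.4% of all genes. It had 12.9, 15.2 and 18.5 CPM in vehicle and 27.1, 32.8, 37.3, 37.7 and 35.1 CPM at the top dose. The rise was 2.19-fold (adjusted p = 0.00110), and no treated library reached down to the vehicle range.

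Genes best known from cartilage rose in part. The list, written after values had been seen, holds 23 tested genes, of which 5 rose and none fell, 21.7% against the 2.4% of all genes, with a median log2 fold change of 0.55. Col2a1 encodes the collagen of cartilage fibrils. It had 14.0, 15.4 and 15.9 CPM in vehicle and 47.3, 43.5, 54.8, 43.9 and 43.3 CPM at the top dose. The treated libraries lay close together, all above vehicle, and the mean rise was 3.08-fold (log2 fold change 1.62, SE 0.177, adjusted p = 1.11e-05).

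The 3 chains of collagen IX, which decorates those fibrils, rose as well. Col9a3 had 31.0, 31.8 and 38.0 CPM in vehicle and 67.7, 68.1, 90.8, 60.9 and 70.4 CPM at the top dose, with no overlap (2.13-fold, adjusted p = 0.000214). Col9a1 was 2.04-fold higher (adjusted p = 0.00310) and Col9a2 2.63-fold higher (adjusted p = 0.00516). Replicate 13 had the highest level of each of the 3 chains and of Col2a1. Acan, the large proteoglycan of cartilage, was not called, at a log2 difference of 0.67 with libraries that did not overlap. Matn1 and Hapln1, a matrix protein and a link protein of cartilage at no more than 2.11 CPM, had -0.91 and -1.29 and were not called.

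Sox6, a partner of SOX9 in cartilage, rose 2.06-fold (adjusted p = 0.0279), from 3.17, 5.81 and 2.85 CPM to 7.81, 7.66, 9.59, 6.98 and 8.62 CPM. Sox8, a SOX factor of the Sertoli cell, rose 1.79-fold, from 23.1, 21.7 and 17.7 CPM to 34.6, 39.9, 40.6, 33.1 and 38.8 CPM (adjusted p = 0.00265). Sox10, its relative of neural crest and glia, rose 3.96-fold, from 1.33, 2.29 and 1.67 CPM to 4.78, 7.10, 10.8, 6.46 and 5.80 CPM (adjusted p = 0.000533). The groups did not overlap for any of the 3 genes. Sox9, which starts the male pathway, had a log2 fold change of 0.48 and was not called (adjusted p = 0.211). Of 17 tested genes with a Sox symbol, 3 rose and none fell, 17.65% against the 2.4% of all genes. Sox6 lost the call in the fit with the sample code.

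Erbb3, a receptor of neuregulins that Schwann cells and other cells carry, rose 2.73-fold. It had 59.3, 42.4 and 35.8 CPM in vehicle and 89.6, 123, 152, 139 and 121 CPM at the top dose (log2 fold change 1.45, SE 0.218, adjusted p = 0.000533). Beside it S100b, another marker of glia, had a log2 difference of -0.38 and was not called (adjusted p = 0.273). Foxd3 and Cdh19 were below the filter, at no more than 0.461 CPM. Of the 15 tested markers 2 rose, Sox10 and Erbb3, 13.3% against the 2.4% of all genes. At an unadjusted p under 0.05, 4 were higher and 3 lower, beside 2391 of all 18005 tested genes in either direction. Values below 0 stood in 7 of the 15, the lowest at -1.075, and above 0 in 8. The list summed to 203 to 230 CPM in vehicle and 250 to 334 CPM at the top dose. Without Erbb3 the other 14 summed to 160 to 177 CPM in vehicle and 141 to 182 CPM at the top dose, which overlap, and the list's median log2 fold change was 0.03.

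**Figure D2:**
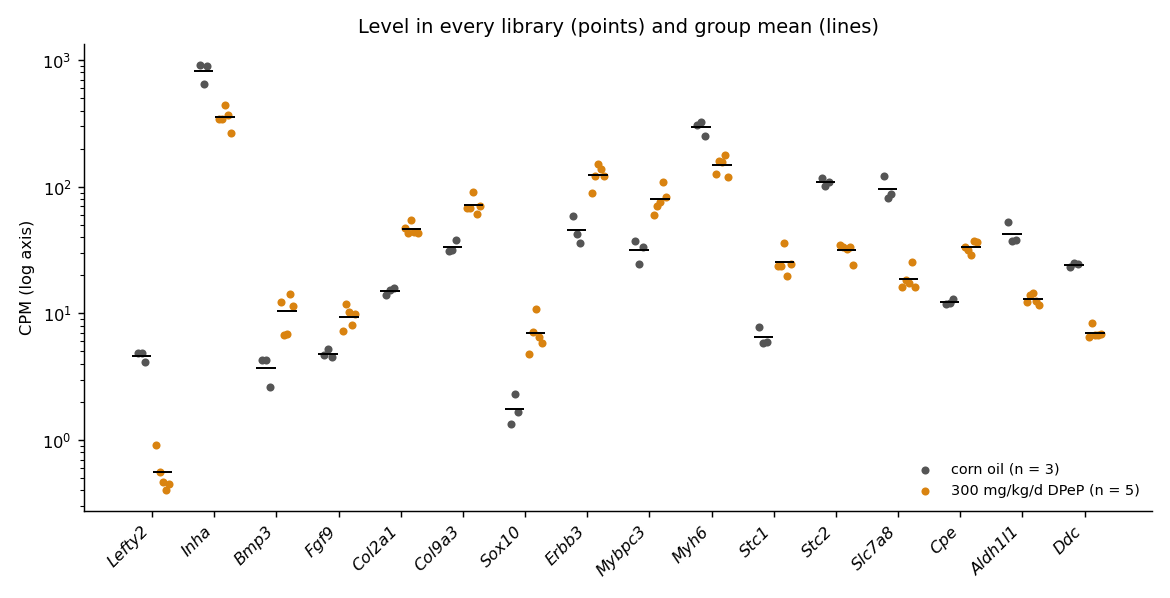
CPM on a log axis of 16 genes in each vehicle library (grey points, n = 3) and each library at 300 mg/kg/d (orange points, n = 5), with black lines at the group means. In each of the 16 genes the points of the groups are apart, with the widest step in Lefty2, from a lowest vehicle level of 4.15 CPM to a highest treated level of 0.908 CPM.

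Genes of the basement membrane and its receptors rose in part, 6 of 37 with none falling, 16.2% against the 2.4% of all genes. The list was written after values had been seen, and its median log2 fold change was 0.19. Itga6, the alpha subunit of a laminin receptor, had 339, 260 and 253 CPM in vehicle and 417, 488, 541, 563 and 485 CPM at the top dose. It was 1.76-fold higher with no overlap (adjusted p = 0.0127). Itga3, another laminin-binding subunit, rose 2.14-fold, from 18.0, 20.0 and 17.3 CPM to 32.6, 41.7, 41.4, 38.8 and 43.0 CPM (adjusted p = 0.00554). Col18a1, whose end fragment is endostatin, rose 1.53-fold (adjusted p = 0.0262) and Nid2, a nidogen that links laminin to collagen IV, 1.48-fold (adjusted p = 0.0385). Bcam, a laminin-binding surface protein, and Ddr1, a collagen receptor kinase, rose 1.53-fold and 1.44-fold. Col18a1, Nid2 and Bcam lost the call in the fit with the sample code. The number of called members ran from 1 to 10 over the 18 alternatives.

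Among single secreted and surface proteins outside that list, Ntn4, Gas6 and Celsr1 rose and Gja1 fell. Ntn4, a netrin that binds laminin, rose 3.21-fold, from 16.5, 8.32 and 9.36 CPM to 24.9, 33.5, 44.0, 43.8 and 36.7 CPM (adjusted p = 0.00131). Gas6 is a ligand of the TAM receptors, which act in the uptake of dying cells. It rose 1.83-fold, from 136, 145 and 152 CPM to 249, 265, 262, 284 and 262 CPM (adjusted p = 0.00611). The spread of Gas6 was small in both groups, with an SD of 7.75 CPM (n = 3) and 12.6 CPM (n = 5). Celsr1, an atypical cadherin of planar cell polarity, rose 1.78-fold (adjusted p = 0.00901). Plxnb1, a semaphorin receptor, rose 1.91-fold (adjusted p = 0.00289). Gja1, the gap junction protein connexin 43, fell 1.63-fold (adjusted p = 0.0231), from 239, 222 and 206 CPM to 158, 130, 174, 120 and 99.8 CPM. Gjb2, connexin 26, rose 2.73-fold (adjusted p = 0.0475), but its replicate 20 with 3.38 CPM lay below vehicle replicate 08 with 4.30 CPM. Gja1 and Gjb2 each kept the call in 11 of 18 alternatives. Gja1 lost it in the fit with the sample code and Gjb2 by limma-voom, among others.

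Muscle-type genes split. Of 26 tested markers of striated muscle, 3 rose and 2 fell, 19.2% against the 2.4% of all genes. The median log2 fold change was 0.18. Myh6, a cardiac myosin heavy chain, fell 1.99-fold, from 307, 325 and 253 CPM to 126, 161, 157, 177 and 119 CPM (adjusted p = 0.0378). Myh7, its neighbour on chromosome 15, fell 1.56-fold, from 35.0, 42.7 and 35.6 CPM to 23.8, 26.8, 24.5, 25.1 and 20.9 CPM (adjusted p = 0.0113). The 2 genes lie at 28417616 to 28441720 and 28446550 to 28468217 of mRatBN7.2 and encode like sequences, and how reads shared between them were counted is not given. The genes that rose were Hrc, a calcium-binding protein of the sarcoplasmic reticulum (3.78-fold, adjusted p = 0.00532), Synpo2l, a protein of the Z-disc (3.36-fold, adjusted p = 0.00642), and Tnnt2, cardiac troponin T (2.19-fold, adjusted p = 0.0381). Myh6, Myh7 and Tnnt2 lost the call in the fit with the sample code. The summed level of the list was 628 to 715 CPM in vehicle and 567 to 705 CPM at the top dose.

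Some further sarcomere genes outside the list, chosen after their values were seen, rose. Mybpc3, cardiac myosin-binding protein C, had 37.0, 24.7 and 33.5 CPM in vehicle and 59.5, 71.1, 75.2, 109 and 83.1 CPM at the top dose (2.51-fold, adjusted p = 0.000633). Mybphl, a relative of myosin-binding protein H, rose 2.26-fold from 34.9, 29.8 and 40.6 CPM to 68.8, 70.8, 105, 83.9 and 69.3 CPM (adjusted p = 0.000272). Unc45b, a chaperone of muscle myosin, rose 2.73-fold (adjusted p = 0.000980), with its highest level, 69.4 CPM, in replicate 13 and 34.2 to 49.4 CPM in the other 4. None of the 3 overlapped with vehicle. Ldb3 and Hspb7, a Z-disc protein and a small heat shock protein of heart muscle, rose 1.67-fold and 1.89-fold. Each lost the call when any single vehicle library was left out, and Hspb7 also in the fit with the sample code. Nebl, which encodes a Z-disc protein and also stands outside the list, was called lower. It kept the call in 17 of 18 alternatives. The thin filament genes Actc1 and Acta1, of cardiac and skeletal muscle, were not called and reached no more than 6.46 and 1.79 CPM in any of the 8 libraries.

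Among 80 tested genes with a Kcn symbol, which encode potassium channel subunits and were grouped after values had been seen, 5 rose and none fell (6.25% against 2.4%). Kcnk1 rose 2.65-fold (log2 fold change 1.40, SE 0.264, adjusted p = 0.00435), Kcng1 rose with 1.27 (adjusted p = 0.00565) and Kcnf1 with 1.23 (adjusted p = 0.0206). Kcna7 rose with 0.87. Kcnf1, and Slc34a2 among the other transport genes given here, lost the call in the fit with the sample code. Scnn1b, the beta subunit of the epithelial sodium channel, rose 2.76-fold (adjusted p = 0.0206), from 2.47, 3.24 and 1.80 CPM to 3.99, 6.93, 11.7, 7.38 and 4.56 CPM. Slc34a2, a phosphate transporter, rose 3.40-fold from a low level, 0.443 to 1.01 CPM in vehicle to 1.67 to 2.87 CPM (adjusted p = 0.0292).

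The amino acid transporter Slc7a8 and its partner Slc3a2 fell. Slc7a8, the light chain LAT2 that carries neutral amino acids (ENSRNOG00000014311, chromosome 15, 28183015 to 28242717), had 122, 81.2 and 87.1 CPM in vehicle. At the top dose it had 16.2, 18.3, 17.5, 25.3 and 16.1 CPM. It was 5.19-fold lower, a log2 difference of -2.37 (SE 0.231, adjusted p = 2.56e-06), and replicate 14 was the highest of the treated libraries. Slc3a2, the heavy chain that LAT2 needs at the cell surface, fell 1.599-fold, from 182, 163 and 198 CPM to 114, 105, 130, 121 and 97.0 CPM (adjusted p = 0.000272). Among 323 tested genes with an Slc symbol 4 rose and 6 fell, 3.10% in all, against 2.4% of all genes.

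The stanniocalcins, secreted glycoproteins of mineral balance, went opposite ways. Stc1 (ENSRNOG00000015075, chromosome 15, 44299621 to 44310264) had 7.79, 5.81 and 5.95 CPM in vehicle and 23.8, 23.8, 35.98, 19.9 and 24.6 CPM at the top dose. It was 3.93-fold higher (log2 fold change 1.98, SE 0.243, adjusted p = 4.44e-05). Stc2 (ENSRNOG00000020729, chromosome 10, 16250853 to 16262973) had 116, 102 and 108 CPM in vehicle and 34.8, 33.2, 32.1, 33.7 and 23.9 CPM at the top dose. It was 3.45-fold lower (log2 fold change -1.79, SE 0.136, adjusted p = 1.14e-07). Neither gene had overlapping groups, and both were called in each of the 18 alternatives.

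Genes of peptide hormones and of the enzymes that trim them also moved both ways. Of 31 tested neuropeptide, granin and processing genes 2 rose and 3 fell, 16.1% against the 2.4% of all genes. That list was written after values had been seen. Pdyn, the precursor of dynorphin, had 51.1, 36.4 and 39.5 CPM in vehicle and 15.9, 13.9, 15.0, 19.7 and 13.9 CPM at the top dose (2.70-fold lower, adjusted p = 2.60e-05). Chga, chromogranin A of secretory granules, fell 3.45-fold (adjusted p = 0.00168), and its vehicle libraries were spread, at 26.3, 9.55 and 11.7 CPM. Penk, the precursor of enkephalin, fell 1.66-fold (adjusted p = 0.0203) and lost the call in the fit with the sample code.

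Cpe, carboxypeptidase E, which trims peptide hormones (ENSRNOG00000043387, chromosome 16, 25030276 to 25142233), rose. It had 11.9, 12.1 and 12.9 CPM in vehicle and 33.4, 31.8, 29.0, 37.5 and 36.8 CPM at the top dose. The groups were far apart, and the mean rise was 2.74-fold (log2 fold change 1.46, SE 0.158, adjusted p = 1.09e-05). Cpm, a membrane-bound carboxypeptidase, rose 2.12-fold, from 6.27, 9.49 and 7.93 CPM to 14.9, 18.0, 18.5, 15.2 and 17.1 CPM (adjusted p = 0.000394). Cpa1, a carboxypeptidase of the digestive type, fell 2.12-fold, from 1037, 718 and 874 CPM to 473, 360, 613, 325 and 294 CPM (adjusted p = 0.0154).

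Single hormone receptors are given here without a count over all receptors. Prlr, the prolactin receptor, had 24.5, 14.6 and 13.6 CPM in vehicle and 5.08, 3.61, 2.75, 4.56 and 2.98 CPM at the top dose (4.62-fold lower, adjusted p = 3.23e-05). Crhr1, the receptor of corticotropin-releasing hormone, fell 1.92-fold (adjusted p = 0.0313) and Hcrtr2, an orexin receptor, 2.29-fold (adjusted p = 0.0123). Amhr2, the receptor of anti-Müllerian hormone, rose from 25.7, 28.9 and 41.0 CPM to 50.2, 52.0, 68.3, 66.8 and 51.1 CPM (1.81-fold, adjusted p = 0.00435). Hcrtr2 lost the call in the fit with the sample code. Prlr was named by rule, and the other 3 were chosen for being called, after their values were seen.

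In 1-carbon metabolism a small set of enzymes fell. Of 44 tested genes of the folate and methionine cycles 5 fell and none rose, 11.4% against the 2.4% of all genes. The list was written after values had been seen, and its median log2 fold change was -0.03. Aldh1l1, which removes formyl groups from folate (ENSRNOG00000047023, chromosome 4, 123060008 to 123106465), had 52.5, 37.4 and 37.7 CPM in vehicle. At the top dose it had 12.4, 14.0, 14.4, 12.6 and 11.7 CPM, 3.26-fold lower (log2 fold change -1.71, SE 0.139, adjusted p = 3.49e-07). Bhmt, which remakes methionine from betaine, fell 2.86-fold, from 22.1, 18.9 and 20.0 CPM to 7.504, 7.60, 7.78, 7.498 and 5.18 CPM (adjusted p = 9.73e-07). Shmt1, the cytosolic serine enzyme, fell 1.95-fold (adjusted p = 2.04e-05), Folr1, a folate receptor, 1.74-fold (adjusted p = 0.00153), and Dmgdh, a mitochondrial enzyme of choline breakdown, 2.25-fold (adjusted p = 0.0193). None of the 5 genes overlapped between groups.

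Enzymes of tryptophan and amine metabolism fell in 4 of 15 tested genes, 26.7% against the 2.4% of all genes. This list too was written after values had been seen. Ddc, which makes serotonin and dopamine from their amino acid precursors, had 23.1, 25.1 and 24.7 CPM in vehicle and 6.54, 8.39, 6.73, 6.75 and 6.87 CPM at the top dose. It was 3.44-fold lower (log2 fold change -1.78, SE 0.159, adjusted p = 7.67e-07), and replicate 07 was the highest of the treated libraries. Aadat, which takes kynurenine to kynurenic acid, fell 6.02-fold, from 9.88, 12.7 and 7.44 CPM to 2.78, 1.97, 0.878, 1.5 and 1.18 CPM (adjusted p = 5.42e-06). Aox1, aldehyde oxidase, fell 4.51-fold (adjusted p = 9.33e-07), and Acmsd, a branch point of the kynurenine route, 2.44-fold (adjusted p = 0.0261), and Acmsd lost the call in the fit with the sample code.

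Promoters of the called genes were searched for a short motif bound by NR5A1, a nuclear receptor that drives steroid genes and many genes of Sertoli cells. The 250 bases before the start were taken from RefSeq's table for GRCr8, a newer build than that of the counts, and 12063 of the tested genes matched an entry. The letters AAGGTCA stood on either strand in 2.76% of all these promoters, in 3.42% of those of the genes that rose (4 of 117) and in 3.68% of those that fell (7 of 190). 5 of these 11 promoters, from genes of the groups described here, are shown. The windows lie at chr3:173415430-173415469 for Svs5, chr14:90682833-90682872 (minus strand) for Ddc, chr2:26614640-26614679 (minus strand) for Bhmt, chr15:36327301-36327340 for Fgf9 and chr7:9559928-9559967 (minus strand) for Amh. Each is written 5′ to 3′ on the strand of its gene, and capitals mark the motif or its reverse complement.
Svs5: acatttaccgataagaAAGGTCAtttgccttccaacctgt
Ddc: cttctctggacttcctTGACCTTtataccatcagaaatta
Bhmt: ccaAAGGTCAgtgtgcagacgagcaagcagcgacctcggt
Fgf9: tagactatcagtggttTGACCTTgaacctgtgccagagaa
Amh: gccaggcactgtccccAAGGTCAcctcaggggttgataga

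The motif begins 75 bases before the start in Svs5, 73 in Ddc, 247 in Bhmt, 41 in Fgf9 and 84 in Amh. Svs5, a secretory protein of the seminal vesicle, fell 18.3-fold, while Amh, the hormone that removes the Müllerian ducts, rose 1.78-fold, so the letters stand before genes of both directions. Amh lost the call in the fit with the sample code. A match describes the letters and not a bound site. TGACG, the core of the cAMP response element, searched on both strands, stood in 25.8% of all matched promoters, 13.7% of those of genes that rose and 20% of those of genes that fell. TATAAA stood in 7.10%, 11.1% and 13.2%.

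Lysosomal enzymes fell in 11 of 49 tested genes with none rising, 22.45% against the 2.4% of all genes. The list was written after values had been seen, and its median log2 fold change was -0.18. Naglu, which breaks down heparan sulphate, fell 3.10-fold. It had 169, 77.5 and 62.3 CPM in vehicle and 29.5, 33.9, 44.9, 25.4 and 32.3 CPM at the top dose, and vehicle replicate 01 stood high (adjusted p = 0.00514). Plbd1, a phospholipase B-like protein, fell 1.89-fold, from 140, 129 and 135 CPM to 75.2, 73.5, 79.2, 80.8 and 47.4 CPM (adjusted p = 0.00209). Creg1, a lysosomal glycoprotein, fell 1.95-fold (adjusted p = 0.00244). Ctsb, the protease cathepsin B, fell by 0.41 on the log2 scale (adjusted p = 0.0471). Ctsb lost the call in the fit with the sample code. The number of members called ran from 5 to 15 over the alternatives.

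Glutathione genes fell in 3 of 28 tested, 10.7% against the 2.4% of all genes, with a median log2 fold change of -0.14. Gsta1, an alpha class transferase, fell 2.84-fold, from 410, 379 and 439 CPM to 157, 149, 135, 156 and 123 CPM (adjusted p = 2.19e-05). Gsta2, of the same class, had 405, 189 and 224 counts in vehicle and 0, 1, 4, 9 and 0 counts at the top dose, so replicates 06 and 20 held no read of it. Reads of both genes can be shared, since their sequences are alike. Gclc, the rate-limiting enzyme of glutathione synthesis, fell 1.45-fold (adjusted p = 0.00923). Outside the list, the mitochondrial peroxidase Prdx3 fell 1.78-fold (adjusted p = 0.00168), from 245, 231 and 256 CPM to 153, 138, 145, 137 and 111 CPM. Alas1, the first enzyme of heme synthesis, fell 2.27-fold (adjusted p = 0.000162). Selenop, the selenium carrier of plasma, fell 2.10-fold, from 804, 531 and 790 CPM to 379, 352, 331, 336 and 290 CPM (adjusted p = 0.00176).

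Of 30 tested glycolysis and hypoxia genes 6 fell and none rose, 20% against the 2.4% of all genes, with a median log2 fold change of -0.15. Pfkp, a phosphofructokinase, fell 1.66-fold, from 150, 137 and 147 CPM to 87.4, 75.0, 107, 88.6 and 76.6 CPM (adjusted p = 0.00851). Pgk1, Eno1 and Pgam1, enzymes of the later steps of the pathway, fell 1.44-fold, 1.40-fold and 1.29-fold. In nuclear genes of mitochondrial respiration all 34 tested had values below 0, against 8648 of all 18005 tested genes. The median of the 34 was -0.21. Only Sdhb, a subunit of succinate dehydrogenase, was called, 1.34-fold lower (adjusted p = 0.0186). That is 2.94% of the respiration list, against the 2.4% of all genes. The summed level of the respiration genes was 5944 to 6508 CPM in vehicle and 4985 to 5652 CPM at the top dose, which did not overlap. Eno1, Pgam1 and Sdhb lost the call in the fit with the sample code. Over the alternatives the number called ran from 1 to 6 for glycolysis and from 0 to 8 for respiration.

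Antigen processing genes fell in part. The list of the immunoproteasome and of MHC class I was written after values had been seen. All 15 tested genes had values below 0, against 8648 of all 18005 tested genes. Of the 15, 5 fell, 33.3% against the 2.4% of all genes, and the median log2 fold change was -0.37. The 3 subunits that set the immunoproteasome apart fell. Psmb9 had 12.2, 10.4 and 11.8 CPM in vehicle and 6.90, 6.93, 7.195, 8.77 and 6.48 CPM at the top dose (1.58-fold, adjusted p = 0.0224). Psmb10 fell 1.51-fold with no overlap (adjusted p = 0.0160). Psmb8 fell 2.05-fold (adjusted p = 0.0280), though vehicle replicate 01, with 5.13 CPM, lay within the treated range of 3.38 to 6.14 CPM. Erap1, which trims peptides for MHC class I, fell 1.64-fold, from 91.8, 77.4 and 68.3 CPM to 55.7, 52.5, 48.9, 45.3 and 39.7 CPM (adjusted p = 0.00115). Irf1, a transcription factor of these genes, fell 1.36-fold (adjusted p = 0.00611). It was the 1 of 21 interferon response genes that was called, 4.76% against the 2.4% of all genes. Psmb8 and Psmb10 lost the call in the fit with the sample code.

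Markers of blood cells and vessels are given beside this. Tyrobp, a signal adapter of macrophages, fell 2.02-fold, from 21.6, 25.5 and 29.8 CPM to 10.5, 10.6, 14.0, 15.9 and 12.3 CPM (adjusted p = 0.00294). It was the 1 of 14 macrophage markers that was called, 7.14% against the 2.4% of all genes. The macrophage list summed to 194 to 237 CPM in vehicle and 158 to 186 CPM at the top dose, without overlap. The 11 endothelial markers summed to 605 to 636 CPM and 493 to 564 CPM, also without overlap. None was called in the main edgeR fit, by DESeq2 or by limma-voom, and up to 2 were over the alternatives. At an unadjusted p under 0.05, 3 were lower, beside 2391 of all 18005 tested genes in either direction. The part of these cells in the lower antigen processing genes was not tested.

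**Figure D3:**
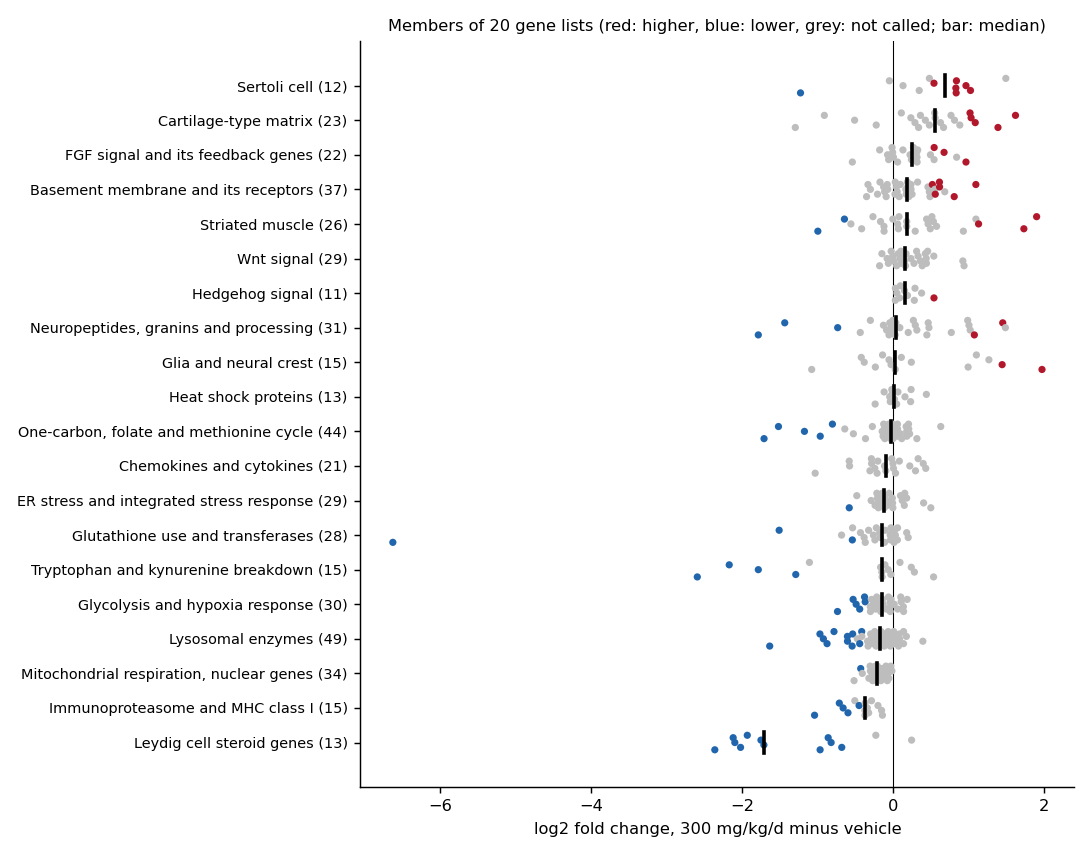
Log2 fold change at 300 mg/kg/d against vehicle (x axis) of each tested member (points) of 20 gene lists (rows, with the number tested), ordered by the list median (black bar). Blue points fell, red points rose and grey points were not called; the Leydig steroid list has its median at -1.71, the next lowest is the immunoproteasome list at -0.37, and the cartilage-type list has a median of 0.55.

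Several of the largest changes belong to none of these groups. Olfm2, an olfactomedin, fell 8.13-fold, from 12.5, 8.66 and 11.7 CPM to 1.09, 1.35, 1.52, 1.15 and 1.63 CPM (log2 fold change -3.01, SE 0.214, adjusted p = 5.94e-08). Vnn3, a vanin of pantetheine breakdown, had 56, 46 and 32 counts in vehicle and 0, 1, 0, 0 and 2 counts at the top dose (adjusted p = 3.00e-06). Entpd5, a nucleotide phosphatase of the endoplasmic reticulum, fell 2.74-fold, and its groups were narrow, 53.7 to 60.2 CPM and 18.9 to 22.3 CPM (adjusted p = 9.93e-08). Gpc4, a glypican of the cell surface, fell 2.11-fold (adjusted p = 5.22e-06), and Dnm3, a dynamin, 2.91-fold (adjusted p = 9.73e-07). Calb2, calretinin, a calcium-binding protein of fetal Leydig cells among others, fell 3.29-fold from 236, 145 and 129 CPM to 64.3, 53.3, 41.6, 43.3 and 55.5 CPM (adjusted p = 0.000980). Procr, the endothelial protein C receptor, fell 4.12-fold (adjusted p = 6.95e-05), with vehicle libraries at 35.4, 17.4 and 51.5 CPM. Calb2 and Procr were named after their values were seen.

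Among the rises, Pmaip1, the cell death gene NOXA, had 6.46, 11.1 and 11.6 CPM in vehicle and 19.2, 24.3, 21.7, 20.1 and 19.7 CPM at the top dose (2.16-fold, adjusted p = 0.000748). Dync1i1, a chain of the dynein motor, rose 3.06-fold (adjusted p = 0.00994), and Fam184b 1.93-fold. Serping1, the inhibitor of complement C1, rose 1.37-fold (adjusted p = 0.0435). With Lcn2 it made up the 2 of 21 tested acute phase and complement genes that rose, 9.52% against the 2.4% of all genes. Dync1i1 and Serping1 lost the call in the fit with the sample code. Capn8, a calpain chosen after its values were seen, rose 2.69-fold from 43.1, 15.5 and 44.4 CPM to 109, 76.7, 62.0, 115 and 98.4 CPM (adjusted p = 0.0136). Liver markers had no call in the main edgeR fit or by limma-voom and 1 by DESeq2. Alb, albumin, was at 90.0 CPM in replicate 07 and between 0.176 and 4.47 CPM in the other 7 libraries. Of 22 tested epithelial markers 18 had values above 0, against 9357 of all 18005 tested genes. The list's median log2 fold change was 0.39, with 9 higher at an unadjusted p under 0.05 and none of them called. The 1 called member went the other way: Cdh1, the adhesion protein E-cadherin, had 145, 116 and 57.3 CPM in vehicle and 9.20, 14.5, 7.08, 7.61 and 11.7 CPM at the top dose. It fell 10.6-fold without overlap (log2 fold change -3.40, SE 0.899, adjusted p = 0.0499), and its call was lost in 11 of 18 alternatives, limma-voom and the fit with the sample code among them. No myoid, fibroblast or red blood cell marker was called in the main edgeR fit, by DESeq2 or by limma-voom. Over the alternatives the highest counts were 1 myoid, 1 fibroblast and 0 red blood cell markers. At an unadjusted p under 0.05 stood 5, 2 and 0 of the 10 tested in each list, and 2391 of all 18005 tested genes.

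The lower doses are set beside these values. They share the vehicle libraries, so no count is compared between doses. Mean levels at 1, 11 and 100 mg/kg/d (n = 3 each) were 4.17, 1.41 and 0.912 CPM for Lefty2, against 4.63 CPM in vehicle and 0.559 CPM at 300 mg/kg/d. For Slc7a8 they were 111, 65.9 and 22.5 CPM between 96.7 and 18.7 CPM, and for Stc2 97.9, 63.6 and 36.5 CPM between 109 and 31.6 CPM. In each of the 3 genes the means ran downward from 11 to 300 mg/kg/d. The matrix genes gave 14.1, 18.2 and 35.0 CPM for Col2a1 (15.1 in vehicle, 46.5 at the top dose) and 28.4, 31.6 and 67.0 CPM for Col9a3 (33.6 and 71.6). Cpe gave 13.9, 12.3 and 15.8 CPM (12.3 and 33.7), and Gas6 gave 184, 152 and 183 CPM (144 and 264). Myh6 was at 454 and 403 CPM at 1 and 11 mg/kg/d, above its vehicle mean of 295 CPM, and at 186 CPM at 100 mg/kg/d. RGD1311744, a gene known by its identifier only, had a mean of 50.7 CPM in vehicle and 130, 154, 169 and 142 CPM at 1, 11, 100 and 300 mg/kg/d (adjusted p = 0.00161 at the top dose), so each of the dose means lay above vehicle.

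**Figure D4:**
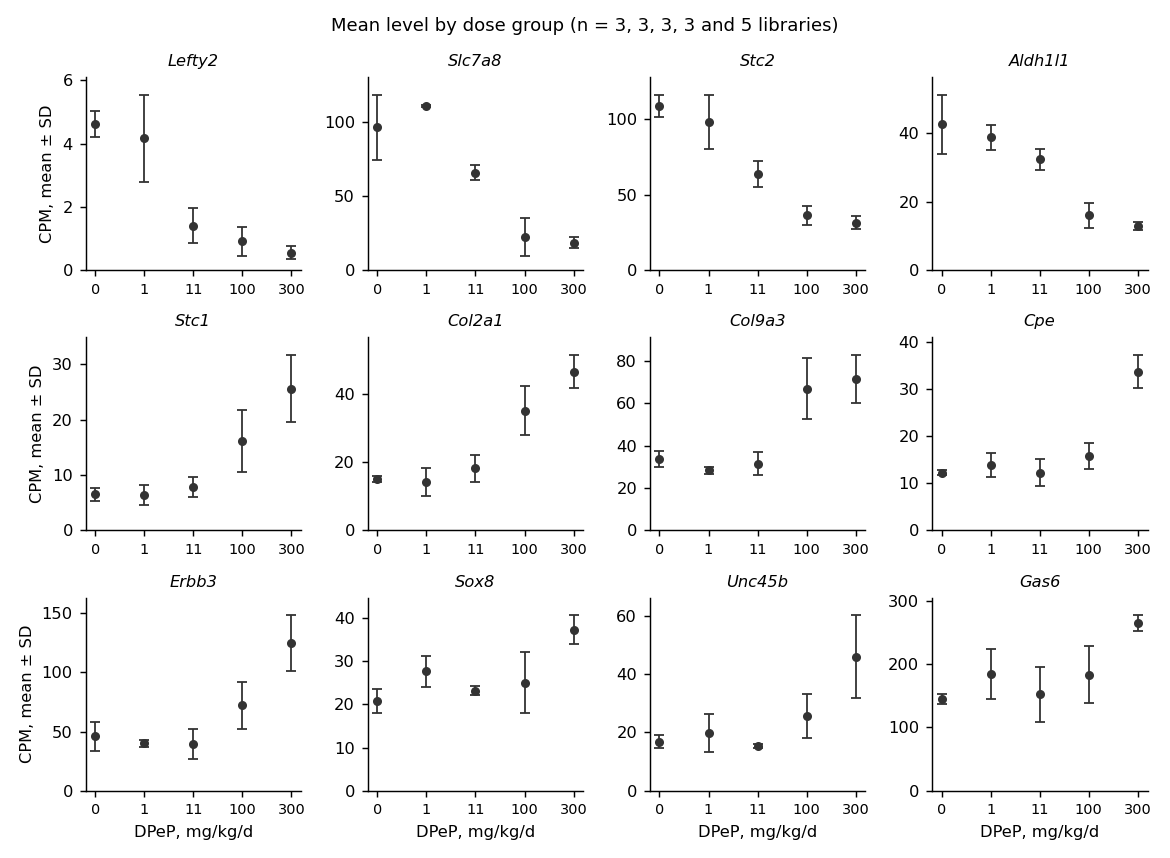
Mean CPM with SD (bars) of 12 genes in vehicle (0) and at 1, 11, 100 and 300 mg/kg/d, with 3, 3, 3, 3 and 5 libraries; each panel has its own CPM axis starting at 0. The means at 100 and 300 mg/kg/d were 22.5 and 18.7 CPM for Slc7a8, 36.5 and 31.6 CPM for Stc2, 0.912 and 0.559 CPM for Lefty2 and 15.8 and 33.7 CPM for Cpe.

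The nearest dose was compared directly. Between 300 and 100 mg/kg/d, 1 gene was called (0.00555% of those tested), and 4362 had an unadjusted p under 0.05. That gene was Cpe, with a log2 difference of 1.09 (adjusted p = 0.0143). DESeq2 called 1145 genes. A run without replicates 05 and 18 at 100 mg/kg/d, the libraries with the high mitochondrial shares, leaves only replicate 19 in that group. It cannot show how many genes differ, and its count is not given. Without replicate 19 of that dose, which leaves replicates 05 and 18, edgeR called 5872. Of the 94 named genes called against vehicle, 49 had an unadjusted p under 0.05 in this comparison.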

How the data were processed

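RNA of fetal rat testes was sequenced in 17 libraries, of which the 3 vehicle and 5 top dose libraries were compared. The authors deposited raw read counts per gene. Reads were handled with Trimmomatic 0.36, STAR 2.5.2b and featureCounts of Subread 1.5.2 on mRatBN7.2, per the submitters' processing notes, which also name DESeq2 and limma without a role. The library kit named in the labels' protocols does not mark strand, so overlapping and antisense genes cannot be told apart. The deposited table of counts repeats identifiers (47125 rows for 30652), and after 92 spike-in rows were dropped 30560 genes were left, 24044 with a symbol.

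Counts were scaled by TMM, filtered with filterByExpr and fitted over all 5 groups with edgeR 4.0.16 (R 4.3.3). The quasi-likelihood F test was adjusted by Benjamini-Hochberg over 18005 genes, with a threshold of 0.05. Each SE was taken as the absolute log2 fold change divided by the root of its F value. The fit was tested on simulated data. Where a symbol stood on several identifiers (246 symbols), the one with the highest mean CPM was used. Of 846 entries in 38 lists, 809 matched and 760 were tested; a further 7 lists (238 entries, 230 matched) were written after values had been seen.

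Members and lists were chosen with earlier results of these data known. Named genes were up to 4 called members per list with the smallest adjusted p (or, with none called, the 2 most abundant), the 15 highest and 15 lowest fold changes at a mean of at least 1 CPM without overlap between groups, the 10 called genes per direction with the smallest adjusted p in no list, and the 8 most abundant called genes per direction. Genes named outside that rule were chosen after their values were seen. Promoters came from RefSeq's GRCr8 table, and no genome of the counts' build was used here. Alternatives were other scalings, filters, samples, the sample code as a covariate, DESeq2 1.42.0, limma-voom (limma 3.58.1) and leaving out each library. Total counts differ little between libraries, and their depth is given with the results.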

Additional observations from a re-analysis of the deposited data

Results flagged for a closer look

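In 9 of 112 named genes (8.04%) 1 of the 5 libraries at 300 mg/kg/d lay far from the other 4 by Dixon's ratio of gap to range, and chance marks about 1 in 20 groups. Replicate 20 was the lowest for Cyp11a1 (215.3 CPM against 287.4 to 303.9), Stc2 (23.93 CPM against 32.12 to 34.8) and Bhmt (5.18 CPM against 7.498 to 7.78). Replicate 13 was the highest for Dusp4 (173.7 CPM against 104.5 to 116.6) and Cyp26b1 (274.8 CPM against 187.6 to 197.3). Replicate 14 was the highest for Slc7a8 (25.26 CPM against 16.05 to 18.31) and Synpo2l (4.211 CPM against 2.59 to 3.026). Replicate 07 was the highest for Alb (89.95 CPM against 0.1755 to 2.196) and Ddc (8.392 CPM against 6.536 to 6.87).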

How the results depend on the processing

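The 432 calls against vehicle (179 higher, 253 lower) became 835 (363 and 472) with only the 2 groups in the fit, 882 (377 and 505) without the 100 mg/kg/d group, 746 (354 and 392) with DESeq2 and 270 (95 and 175) once the sample code was added. Leaving out 1 library gave 212 to 432 calls, 61 to 202 higher and 151 to 242 lower; the lowest total came without vehicle replicate 15. The cause of these shifts was not tested. The other scalings, filters and limma-voom stayed within 1.5 times the count. No called gene with a symbol reversed. Of the 421 called genes with a symbol, 155 were called in each alternative, 39 of 170 higher and 116 of 251 lower. Against 100 mg/kg/d the 1 call became 0 once the sample code was added, 225 without a filter, 1145 with DESeq2, 0 to 5872 without 1 library, and 0 without replicates 05 and 18 of 100 mg/kg/d, which was chosen after seeing the data. The counts of genes whose libraries did not overlap were 2095 to 2225. No paired analysis was possible because the groups share no replicate numbers. The 2 codes that both groups share were used as a term instead, which gave 552 calls. Depth limits genes of few counts, such as Lefty2.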

Other observations

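A cluster of very short genes on chromosome 6 (128602941 to 128661261 of mRatBN7.2), between Mir1188 and Mir410, stood at separate levels in libraries of the same dose. It holds 49 tested genes of 74 to 95 bases, 45 of them without a symbol, and was singled out after its values were seen. None was called by edgeR. The genes summed to 29.2, 24.5 and 22.2 CPM in vehicle replicates 01, 08 and 15. At 300 mg/kg/d they summed to 72.6, 24.8, 58.6, 49.8 and 93.4 CPM in replicates 06, 07, 13, 14 and 20, so replicate 07 lay at the vehicle level and the other 4 above it. At each lower dose 1 of 3 libraries was high: 93.1 CPM against 21.7 and 21.8 CPM at 1 mg/kg/d, 78.6 CPM against 16.1 and 25.5 CPM at 11 mg/kg/d, and 87.1 CPM against 32.2 and 32.8 CPM at 100 mg/kg/d.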
